A study of Mus musculus with 2 samples.

Results

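The Schlafen genes are a family of vertebrate genes that in the mouse lie side by side on chromosome 11. The 7 genes described here are *Slfn1*, *Slfn2*, *Slfn3*, *Slfn4*, *Slfn5*, *Slfn8* and *Slfn9*, taken by symbol from the 54532 gene identifiers of a raw count table. The annotation holds 11 genes whose symbol starts with Slfn, and the other 4 are described separately. RNA from bone marrow-derived macrophages (BMDMs) in an M1-like state was sequenced in 1 FRβ KO library and 1 WT library. The comparison asks which transcripts differ in macrophages of mice in which the gene of folate receptor β is disrupted. The FRβ KO library came from male FRβ KO mice labelled C57BL/6, in which a neomycin resistance gene had been inserted into *Folr2*, the gene of folate receptor β. That line was made on the SWV background and crossed to C57BL/6, for a number of generations the sources used do not give. The WT library came from male C57BL/6 mice without the insertion. By the study's methods WT mice were bought from a commercial breeder and FRβ KO mice were bred at the authors' university. The source of the mice thus differed along with genotype. In both genotypes bone marrow cells were kept for 7 days in medium with 20 ng/mL M-CSF. Polarization followed for 24 hours, with IFNγ at 20 ng/mL and LPS at 1 ng/mL, in a medium the labels give as regular RPMI. The donors' age when marrow was taken was not stated. RNA from 3 mice went into each pool, so each value below is that of a single pooled library. No p-value can be given, every interval covers counting error only, and a difference between genotypes cannot be told apart from one between these pools of mice. In bulk RNA, fewer cells of a type and less RNA per cell also cannot be told apart.

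The FRβ KO library held 19742619 counts and the WT library 18871271, over 19090 and 18945 detected genes. *Folr2* had 2 counts in FRβ KO and 0 in WT, so these libraries give no check of the genotype at the RNA level. Transcript of the receptor was thus not detected in the WT cells when they were sampled, and these libraries hold no measure of its protein. All 8 macrophage markers were measured, with 1950 to 275618 counts in FRβ KO and 2314 to 304923 in WT. Of 7 T cell markers 5 were at 0 in both libraries and the list summed to 1.1 CPM (counts in a library scaled to 1000000) in FRβ KO and 1.5 CPM in WT. B cell, NK cell and erythroid markers each summed to less than 1 CPM in either library. The 4 fibroblast markers summed to 1.9 CPM in FRβ KO and 2.6 CPM in WT. The 8 neutrophil markers summed to 21.8 CPM in FRβ KO and 36.7 CPM in WT, nearly all from *S100a8* (407 and 652 counts), while *Retnlg* was at 0 in both. *S100a8* had a KO/WT ratio of 0.582 (0.513 to 0.660). The 5 dendritic cell markers summed to 27.5 CPM in FRβ KO and 24.5 CPM in WT, with *Siglech* at 0 in both. *Clec9a* had 339 counts in FRβ KO and 237 in WT, a KO/WT ratio of 1.33 with its counting interval above 1. *Zbtb46* had 109 and 138, a ratio of 0.736 with its interval below 1. *Xcr1* had 94 and 76 counts and *Flt3* 8 and 6. The part of such cells in the ratios below was not tested.

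Schlafen proteins are regulators of growth, differentiation and antiviral defence, and many of the genes are induced by type I interferon. All share an N-terminal core, which in some members of other species cleaves transfer RNA. Short members consist of little more than this core, intermediate members add a linker region, and long members also carry a C-terminal region that resembles a helicase. Mouse macrophages are known to raise several Schlafen transcripts when they meet LPS or interferon.

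The 7 genes spanned 263.8 kb of chromosome 11 (mm10, chr11:82951349-83215154). The long *Slfn5* came first, on the plus strand at chr11:82951349-82964840. The long *Slfn9* (chr11:82978390-82991830) and *Slfn8* (chr11:83002158-83020810) followed on the minus strand, with the pseudogene *Slfn10-ps* beside them (chr11:83028130-83040042, minus strand). The short *Slfn2* (chr11:83065112-83070678) and *Slfn1* (chr11:83116849-83122670) and the intermediate *Slfn4* (chr11:83175186-83190216) and *Slfn3* (chr11:83191330-83215154) closed the cluster on the plus strand.

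The promoters divided the family in a similar way. All 7 genes matched a promoter in RefSeq (GRCm38.p6), in 8 windows because *Slfn8* has 2 starts. The 250 bases before each RefSeq start were searched. For *Slfn5* that stretch, chr11:82951852-82952101, lay inside the gene span given above. The bases before the first base of that span, chr11:82951349, were not searched. The core of the interferon-stimulated response element, which interferon-activated factors bind, was searched on both strands as GAAA, any 2 bases and GAAA again. It occurred in *Slfn5*, *Slfn8* and *Slfn9*, the 3 long members, and in 2.98% of 32851 mouse promoters of that length. In *Slfn8* and *Slfn9* it read as its reverse complement along the gene. The 60 bases around each match are shown because they set the long members apart from the rest, 5′ to 3′ along the gene's own strand, with the match in capitals. The windows lie at chr11:82951922-82951981 for *Slfn5* (plus strand), chr11:83020824-83020883 for *Slfn8* (minus) and chr11:82991841-82991900 for *Slfn9* (minus).
Slfn5: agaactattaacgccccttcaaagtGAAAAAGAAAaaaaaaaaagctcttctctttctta
Slfn8: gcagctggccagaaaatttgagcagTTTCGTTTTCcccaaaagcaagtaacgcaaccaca
Slfn9: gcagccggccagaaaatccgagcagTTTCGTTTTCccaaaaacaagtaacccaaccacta

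The *Slfn8* and *Slfn9* windows held the same base at 44 of 60 positions, while *Slfn5* shared 15 with *Slfn8* and 14 with *Slfn9*. Positions were compared without gaps, and the count for *Slfn8* and *Slfn9* includes the match itself. *Slfn5* holds the match in the other orientation. How many bases unrelated windows share was not computed. Counted back from -1 at the last base before the start, the match lay at -155 to -146 in *Slfn5* and at -45 to -36 in *Slfn9*. In *Slfn8* it lay at -48 to -39 from 1 start and at -136 to -127 from the other. The short and intermediate genes had another run of letters in common, ACTTCCTGG, which holds the core that ETS factors such as PU.1 bind. It was chosen after the sequences were seen, was searched on both strands, and occurred in 0.700% of all promoters. It lay at -74 to -66 in *Slfn1*, -55 to -47 in *Slfn2*, -42 to -34 in *Slfn3* and -73 to -65 in *Slfn4*, and in none of the windows of the long members. Their windows, all on the plus strand with that run in capitals, lie at chr11:83116721-83116780 for *Slfn1*, chr11:83065032-83065091 for *Slfn2*, chr11:83191263-83191322 for *Slfn3* and chr11:83175088-83175147 for *Slfn4*.
Slfn1: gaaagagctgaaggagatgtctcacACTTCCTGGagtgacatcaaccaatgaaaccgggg
Slfn2: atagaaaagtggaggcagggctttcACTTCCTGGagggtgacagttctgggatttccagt
Slfn3: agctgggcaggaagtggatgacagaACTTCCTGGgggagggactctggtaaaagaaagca
Slfn4: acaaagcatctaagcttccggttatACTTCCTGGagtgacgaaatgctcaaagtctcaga

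These windows shared 19 to 30 of 60 bases, the most between *Slfn2* and *Slfn4*. The windows were cut around the run, so these counts include the run itself and do not measure likeness of the promoters beyond it. A κB-type sequence, searched as GGGA, any 4 bases and CC, occurred in *Slfn9* alone and in 17.6% of all promoters. No matches of different motifs overlapped. A match of letters describes the sequence and does not show that a factor was bound in these cells.

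All 7 Schlafen genes were expressed in both libraries, and their levels covered about 2 orders of magnitude in the same order. Levels are given as scaled CPM per kilobase of exon, so that genes of different length can be compared. *Slfn2*, a short member that keeps mouse T cells and monocytes quiescent, was by far the most abundant, at 407.7 in FRβ KO (95% interval 401 to 415) and 408.1 in WT (401 to 415). It had more counts than 98.8% of the 14489 genes whose counts summed to 10 or more, called measured genes here. *Slfn1*, the other short member, whose forced expression blocks the growth of mouse thymocytes, stood at 79.9 in FRβ KO and 81.8 in WT. *Slfn5*, a long member found in the nucleus, stood at 58.9 in FRβ KO and 61.6 in WT. Then came *Slfn8* at 36.1 in FRβ KO and 29.0 in WT. The 3 lowest were *Slfn4* (13.3 in FRβ KO and 14.1 in WT), *Slfn3* (6.34 and 5.91) and *Slfn9* (4.56 and 4.11). No interval overlapped that of the next gene in the order, in either library. The step from *Slfn1* up to *Slfn2* was the largest, 5.10-fold in FRβ KO and 4.99-fold in WT, and the step from *Slfn1* down to *Slfn5* was 1.36-fold in FRβ KO and 1.33-fold in WT.

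**Figure D1:**
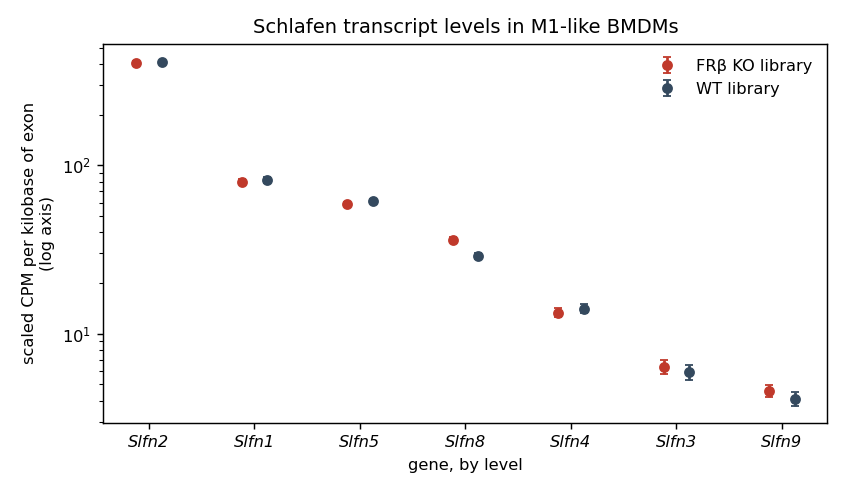
Level of each Schlafen gene in the FRβ KO library (red) and the WT library (dark blue), in scaled CPM per kilobase of exon on a log axis, with exact 95% Poisson intervals. *Slfn2* lies near 408 in both libraries and *Slfn9* lies lowest, at 4.56 in FRβ KO and 4.11 in WT, and *Slfn8* is the gene whose 2 points stand farthest apart.

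Per length, *Slfn2* alone made up 67.2% of the family's summed level in FRβ KO and 67.5% in WT. As a share of the family's counts it took 46.8% in FRβ KO (Clopper-Pearson 95% interval 46.2 to 47.4) and 47.1% in WT (46.5 to 47.7). The shares of the members add up to the whole, so a higher share of a member lowers those of the others. No such shares were computed for other genes. Of genes with at least as many counts as the lowest member, 20.6% had a KO/WT ratio interval above 1 and 23.1% below. For 2 members the shares did not overlap between libraries. *Slfn8* took 10.2% in FRβ KO (9.85 to 10.6) and 8.23% in WT (7.91 to 8.57), and *Slfn5* took 25.7% in FRβ KO (25.2 to 26.2) and 27.1% in WT (26.5 to 27.6). These shares do not depend on how the libraries were scaled.

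With TMM scaling the summed level of the family differed between the libraries by less than counting error. Its 7 genes summed to 28977 counts in FRβ KO and 26845 in WT, a KO/WT ratio of 1.01 after scaling (0.99 to 1.02). That interval lay above 1 when libraries were scaled by total counts (ratio 1.03, 1.01 to 1.05) and when *Slfn5* was left out of the sum (1.02, 1.01 to 1.05). Scaling took the FRβ KO library as 1.07 times the size of the WT library. Of the 7 genes 1, *Slfn8*, had its whole interval above a ratio of 1, against 14.7% of measured genes. In the other direction 1, *Slfn5*, had its whole interval below 1, against 16.8% of measured genes. Over all measured genes this was 2137 genes above 1 and 2429 below, against 2813 above and 1907 below when libraries were scaled by total counts. The shares of members are close to the background. No member lay beyond 1.5-fold with its whole interval, against 0.939% of measured genes above and 1.07% below. The median log2 ratio of the members was -0.0013, beside -0.0051 over all measured genes, and with the other scalings it was above 0, from 0.0095 to 0.035. By point ratio 3 members were above 1, against 49% of measured genes, and 4 below, against 51%, and with total counts in place of TMM 5 were above and 2 below.

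The intervals of both short members held 1. *Slfn2* had 13562 counts in FRβ KO and 12655 in WT, a ratio of 0.999 (0.975 to 1.02). *Slfn1* had 2979 counts in FRβ KO and 2841 in WT, a ratio of 0.978 (0.928 to 1.03). Together the short genes gave a ratio of 0.995 (0.974 to 1.02).

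The intermediate members were lower in level, and their intervals held 1. *Slfn4*, which mouse bone marrow cells switch off as they mature into macrophages and switch on again when activated, had 1053 counts in FRβ KO and 1041 in WT, a ratio of 0.943 (0.865 to 1.03). *Slfn3*, known for its part in the differentiation of rodent gut epithelium, had 432 counts in FRβ KO and 376 in WT, a ratio of 1.07 (0.931 to 1.23). Their sum gave 0.977 (0.908 to 1.05). These transcripts are partly the same sequence, with 97.3% identity over 337 bases, and *Slfn3* also shares 379 bases at 95.3% with *Slfn2*, so the division of counts between them is uncertain.

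The long members did not share 1 direction. *Slfn8* had 2956 counts in FRβ KO and 2210 in WT, a ratio of 1.25 (1.18 to 1.32), the highest of the 7. *Slfn9*, its closest relative, had 544 counts in FRβ KO and 457 in WT, a ratio of 1.11 (0.978 to 1.26). *Slfn5* had 7451 counts in FRβ KO and 7265 in WT, a ratio of 0.956 (0.926 to 0.988). *Slfn8* was thus higher in FRβ KO and *Slfn5* slightly lower, and the *Slfn9* interval held 1. When the libraries were scaled by total counts, the *Slfn5* ratio was 0.980 with an interval that held 1, and the *Slfn9* ratio was 1.14 with an interval above 1. The sum of the long genes gave 1.03 with its lower bound at 1.00.

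Among the 6429 genes with at least as many counts as *Slfn3*, the lowest member, 20.6% had an interval above 1 and 23.1% below. The middle 50% of their ratios ran from 0.933 to 1.06, and 5 in 100 lay above 1.20. *Slfn8* lay beyond that value, and the other 6 members lay below it. Of all measured genes 85.3% had a lower ratio than *Slfn8*.

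**Figure D2:**
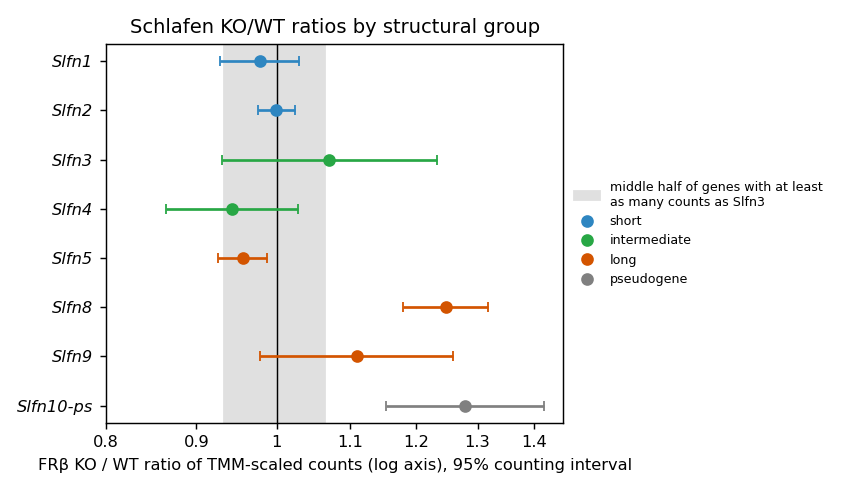
FRβ KO/WT ratio of TMM-scaled counts for each Schlafen gene and for *Slfn10-ps*, on a log axis with 95% counting intervals, coloured by structural group, and with a grey band from 0.933 to 1.06 for the middle 50% of genes with at least as many counts as *Slfn3*. *Slfn8* at 1.25 and *Slfn10-ps* at 1.28 lie right of the band with their whole intervals.

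**Figure D3:**
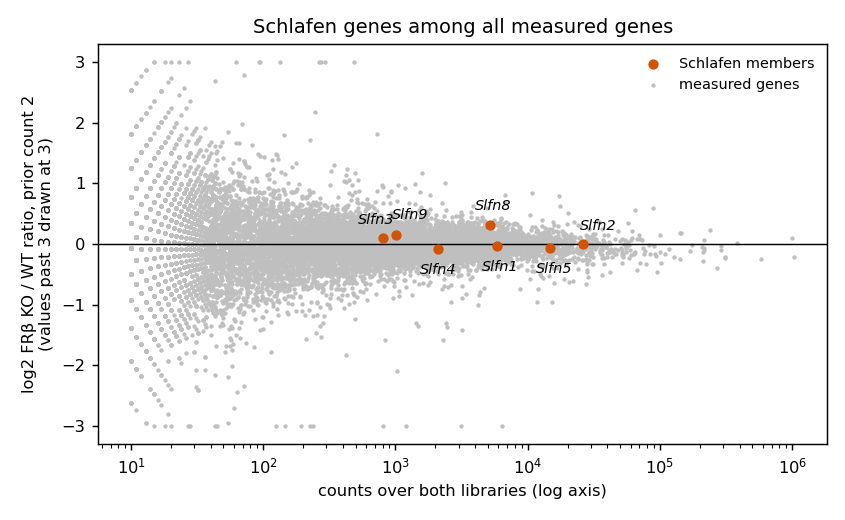
Log2 FRβ KO/WT ratio (prior count 2, values past 3 drawn at 3) against counts over both libraries on a log axis, for 14489 measured genes (grey) and the 7 Schlafen genes (orange). *Slfn8* lies highest of the 7 at 0.32, past the ratio of 1.20 that 5 in 100 genes with at least as many counts as *Slfn3* exceed. The other 6 members lie below that ratio.

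*Slfn10-ps*, the pseudogene next to *Slfn8*, had 872 counts in FRβ KO and 636 in WT, a ratio of 1.28 (1.15 to 1.42). Its ratio relative to *Slfn8* was 1.03 (0.911 to 1.15), so the pair could not be separated at this depth. *Slfn8* shares near-identical stretches with both *Slfn9* and *Slfn10-ps*. The *Slfn8* transcripts matched *Slfn9* at 96.7% and *Slfn10-ps* at 96.3% over 725 bases, and the longest alignments covered 3853 bases at 92.0% with *Slfn9* and 3530 bases at 92.2% with *Slfn10-ps*. Reads of 150 bases from the closest stretches may not have been assigned to 1 gene with certainty, so the counts of these 3 loci are best read together. Their sum was 4372 in FRβ KO and 3303 in WT, a ratio of 1.23 (1.18 to 1.29). *Slfn8* and *Slfn9* alone gave 1.22 (1.16 to 1.29). *Slfn5* shared no such stretch with a Schlafen gene, its longest alignment with *Slfn8* being 1007 bases at 66.2%, though stretches of 170 to 209 bases in its transcripts matched transcripts of 23 other genes. *Slfn1* had no near-identical copy.

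Ratios between members within a library need no scaling and were compared for all 21 pairs. In 8 pairs the 95% counting interval lay off 1, with no correction for the number of pairs, and 5 of the 8 held *Slfn8*. The pairs reuse the same members, so those that hold *Slfn8* are not separate results. Pairs of other genes were not compared. Of genes with at least as many counts as *Slfn3*, 20.6% had a single-gene interval above 1 and 23.1% below. The ratio of *Slfn2* to *Slfn8* in FRβ KO was 0.801 times that in WT (0.754 to 0.851). That of *Slfn5* to *Slfn8* was 0.767 times (0.719 to 0.818), and that of *Slfn4* to *Slfn8* was 0.756 times (0.682 to 0.838). *Slfn1* (0.784 times) and *Slfn3* (0.859 times, 0.738 to 0.9998) relative to *Slfn8* were also lower in FRβ KO. The relative ratio of *Slfn8* to *Slfn9* was 1.12 (0.978 to 1.29). The 3 pairs without *Slfn8* were *Slfn5* to *Slfn9* (0.862), *Slfn4* to *Slfn9* (0.850) and *Slfn2* to *Slfn5* (1.04).

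The remaining Schlafen loci were near or at 0. *Slfn14*, known from platelets and red cell precursors, had 0 counts in both libraries, which allows up to 3 counts, or 0.150 CPM in FRβ KO and 0.161 CPM in WT. *Slfn5os*, antisense to *Slfn5*, had 0 counts in FRβ KO and 3 in WT, and *Slfnl1*, a Schlafen-like gene on chromosome 4, had 3 and 0. No fold is given for these. *Gm20234*, antisense to *Slfn2*, had 20 counts in FRβ KO and 18 in WT. Whether reads were counted by strand was not stated.

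A group of chemokine genes lies downstream of the Schlafen cluster. In the cluster and within 500 kb on either side, 25 measured genes were not members. Of these 13 had a ratio above 1 and 12 below, with a median log2 ratio of 0.046. *Slfn10-ps*, *Gm11425* and *Gm20234* lie within the cluster itself, and the rest lie in the flanks. Of these 25 genes 4 had an interval above 1 (*Gm11423*, *Slfn10-ps*, *Heatr9* and *Ccl5*) and 4 below (*Ccl4*, *Ccl6*, *Ccl9* and *Wfdc17*), shares close to the 14.7% and 16.8% of measured genes. Beyond 1.5-fold with the whole interval were *Ccl6*, a macrophage chemokine (5411 counts in FRβ KO and 9736 in WT, ratio 0.518, 0.501 to 0.536), and *Wfdc17* (8391 and 12126 counts, ratio 0.645, 0.627 to 0.663). Both were lower in FRβ KO. *Ccl5*, a chemokine for T cells, had 39778 counts in FRβ KO and 25001 in WT, a ratio of 1.48, and was named after its value was seen.

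**Figure D4:**
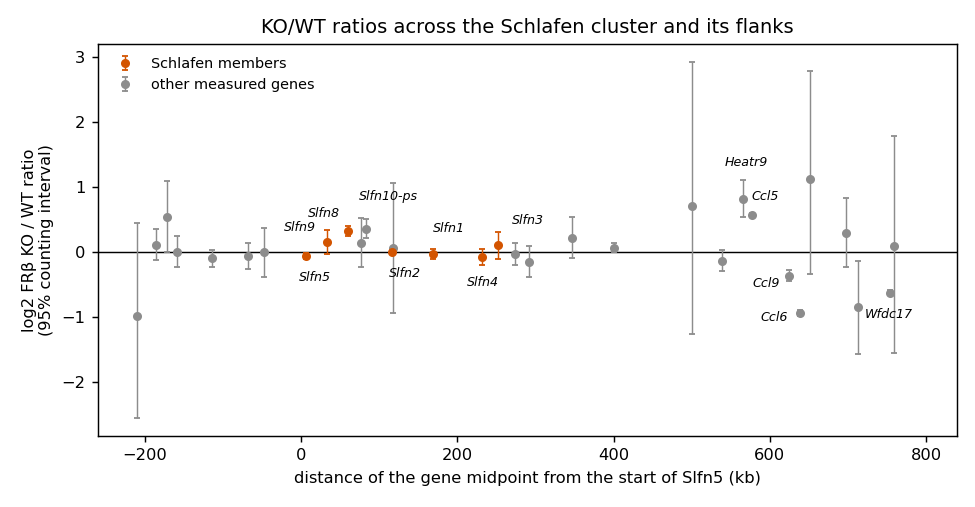
Log2 FRβ KO/WT ratio with 95% counting intervals, by the distance of each gene's midpoint from the start of *Slfn5* in kb. Orange marks the 7 Schlafen members, and grey the other measured genes of the cluster and of 500 kb on either side. The Schlafen genes lie close to 0, with *Slfn8* and *Slfn10-ps* above it, while *Ccl6* and *Wfdc17* lie below it and *Ccl5* above it.

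The genes of the interferon pathway that control Schlafen transcription in other settings did not share 1 direction. Of 10 interferon receptors, JAK kinases, STATs and IRF9, 2 had an interval above 1 and 2 below, against 14.7% and 16.8% of all measured genes and 20.6% and 23.1% of those with at least as many counts as *Slfn3*. *Jak2*, a kinase of the IFNγ receptor, had 3147 counts in FRβ KO and 3681 in WT (ratio 0.797, 0.760 to 0.836), and *Ifngr1*, a chain of that receptor, had 1392 and 1111 counts (ratio 1.17, 1.08 to 1.27). *Jak1* was at 0.918 and *Stat2* at 1.07. Of 24 interferon-stimulated genes, 9 had an interval above 1 and 6 below, against the same background shares, with a median log2 ratio of 0.059. *Mx2*, an antiviral GTPase, had 2542 counts in FRβ KO and 1968 in WT (ratio 1.20), *Ddx58*, encoding the RNA sensor RIG-I, was at 1.17, *Parp14* at 0.893 and *Isg15*, a ubiquitin-like modifier, at 0.852. With total counts 14 were above and 2 below.

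The genes listed as IFNγ targets were all lower in FRβ KO, in a list chosen with earlier results of these data known. All 16 had an interval below 1, against 16.8% of measured genes and 23.1% of those with at least as many counts as *Slfn3*, under each of the 4 scalings, with a median log2 ratio of -0.21. *Socs1*, a feedback inhibitor of JAK kinases, had 6461 counts in FRβ KO and 9454 in WT (ratio 0.637, 0.617 to 0.658). *Cxcl9*, an IFNγ-induced chemokine, was at 0.695, *Irf8*, a factor of the macrophage lineage, at 0.726, and *Iigp1*, an immunity-related GTPase, at 0.728. Among the 7 Schlafen genes, *Slfn5* alone had an interval below 1. Of 14 genes of TLR4 signalling, the pathway that LPS engages, 2 had an interval above 1 and 0 below, and the share above is close to the 14.7% of measured genes. These were *Cd14*, the LPS co-receptor (11218 counts in FRβ KO and 6017 in WT, ratio 1.74, 1.68 to 1.79), and *Irak1* (1.07).

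Schlafen proteins are tied to quiescence, and the listed genes of quiescence and growth arrest were mostly higher in FRβ KO. That list too was chosen with earlier results of these data known. Of the 12 genes 9 had an interval above 1 and 0 below, with a median log2 ratio of 0.22. The background was 14.7% and 16.8% of measured genes, and 20.6% and 23.1% of those with at least as many counts as *Slfn3*. *Tob1*, an antiproliferative factor of T cells, had 540 counts in FRβ KO and 364 in WT (ratio 1.38, 1.21 to 1.58). *Cdkn1a*, encoding the cyclin-dependent kinase inhibitor p21, was at 1.19 and *Btg1* at 1.16. *Cdkn2c* had 25 counts in FRβ KO and 3 in WT, a ratio of 7.77 (2.37 to 40.2). *Slfn2* itself, the member with the clearest role in quiescence, was at 0.999.

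The proliferation, tRNA and RPA lists are set against 14.7% of measured genes with an interval above 1 and 16.8% below. The shares called in these short lists were near that background. Of 11 measured proliferation genes, 2 had an interval above 1 and 2 below. *Ccnd1*, encoding cyclin D1, had 430 counts in FRβ KO and 994 in WT (ratio 0.403, 0.359 to 0.452), and *Mki67*, a marker of cycling cells, had 395 and 239 (ratio 1.54, 1.31 to 1.82). *Ccna2* had 16 and 4 counts, and *Pcna* was at 0.938. Of 6 genes that cut or methylate tRNA or inhibit its cleavage, 1 was above and 1 below, *Trdmt1*, which encodes the tRNA methyltransferase DNMT2 (148 counts in FRβ KO and 96 in WT, ratio 1.44), and *Rnh1*, the inhibitor of angiogenin (ratio 0.960). Of 9 genes of the RPA complex and replication stress, to which human SLFN11 is tied, 2 were above and 1 below. *Rpa3* had 87 counts in FRβ KO and 43 in WT (ratio 1.89, 1.29 to 2.79), *Ddb1* was at 1.05 and *Cul4a* at 0.919. With total-count scaling the intervals of *Pcna*, *Rnh1* and *Cul4a* held 1.

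**Figure D5:**
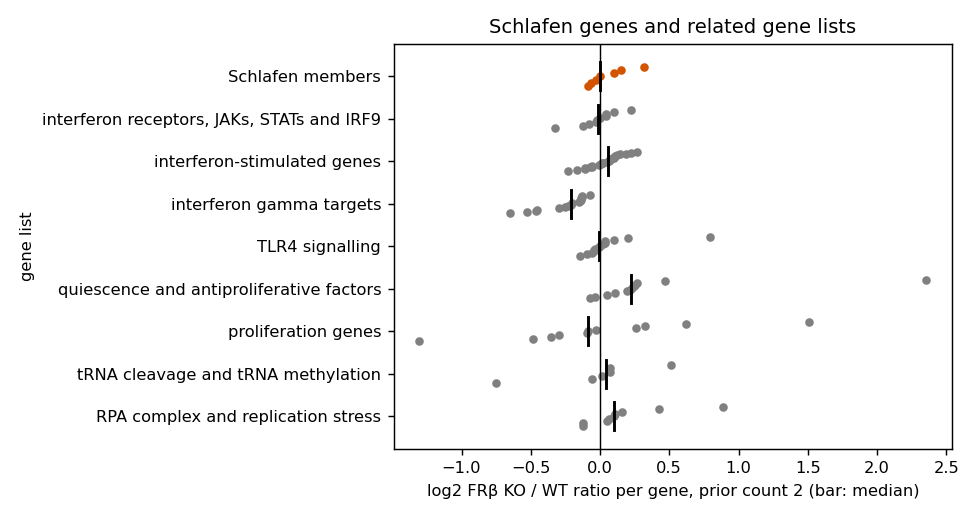
Log2 FRβ KO/WT ratio (prior count 2) of each measured gene of the Schlafen family (orange) and of 8 related lists (grey), 1 row per list, with a black bar at each median. The Schlafen median lies at 0, the IFNγ targets lie left of 0 with a median of -0.21, and the quiescence list lies mostly right of 0 with a median of 0.22.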

How the data were processed

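The deposited values were raw read counts per gene. Paired-end reads of 150 bp had been trimmed, aligned to mm10 with HISAT2 and counted by the sequencing company the authors used. Which counter, gene annotation and strand option it applied is not given in the sources used, nor is the meaning of FA_N in the sample titles. The deposited table had 1 column per genotype and no column was left out. Symbols and coordinates came from GENCODE M21, which lacked 37 of the 54532 identifiers.

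Libraries were scaled by TMM (edgeR 4.0.16, R 4.3.3). KO/WT ratios of scaled counts were computed per gene with an exact conditional 95% interval (Python 3.11.15, scipy 1.17.1). A gene was measured if its counts summed to 10 or more, log2 ratios used a prior count of 2, and 3 counts were taken as the floor for a count of 0. Reads carried no molecular identifiers, so intervals and floors cover counting error only. Levels used the merged exon length. Transcript copies were searched with blastn 2.17.0 (95% identity over 150 bp), and RefSeq promoters with motif letters on both strands, of which 1 motif is not reported here.

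Named genes were the 7 members, other Slfn loci, *Folr2*, neighbours beyond 1.5-fold within 500 kb, and up to 4 genes per related list whose interval bound nearest to 1 lay farthest from it. Members, lists and rules were chosen with earlier results of these data known. Alternatives were DESeq2 1.42.0 size factors, upper-quartile or total-count scaling, prior counts of 0.125 and 5, minimum counts of 1 and 50, 99% intervals, sums over near copies, and the longest transcript as length.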

Additional observations from a re-analysis of the deposited data

How the results depend on the processing

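With 1 pooled library per genotype, no alternative replaces the missing replicate error and depth limits the low members most, since the intervals of *Slfn3* and *Slfn9* span more than 20% of their ratios. No alternative turned a called ratio round. Of 21 single-gene scaling alternatives 19 kept their call, and *Slfn8* kept its interval above 1 in each. Scaling by total counts gave 0.980 for *Slfn5*, whose interval then held 1, and gave 1.14 for *Slfn9* and 1.03 for the family sum, whose intervals then lay above 1. It put 2 members above 1 and 0 below, and the Schlafen median log2 ratio at 0.035. *Slfn9* summed with its near copy gave 1.22, and the family sum without *Slfn5* gave 1.02 with its interval above 1. The 99% interval of the long-member sum (1.03) held 1. Genes with an interval above 1 numbered 2137, against 1408 with 99% intervals and 1324 among genes with at least as many counts as *Slfn3* (below 1: 2429 and 1487). By point ratio alone 1182 genes were over 1.5-fold higher and 1271 lower, by whole interval 136 and 155, and beyond 2-fold 45 and 59. With the longest transcript as length, *Slfn3* stood at 7.63 in FRβ KO and 7.12 in WT and *Slfn5* at 62.3 and 65.2, and the order of levels was unchanged. No paired analysis was possible because each genotype has 1 library.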
